A study of Saccharomyces cerevisiae S288C with 18 samples.

Results

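The nitrogen catabolite repression genes of Saccharomyces cerevisiae were followed across 6 groups of cultures treated with amphotericin B (AMB), lactoferrin (LF) or both. The members are 36 of the 6692 genes in the count table, selected by their annotated role in nitrogen uptake, nitrogen use and its regulation. The list was also chosen on measured values, since the fold changes under AMB and under the combination were already known, so their values against each treatment's control are given below as a description. AMB is a polyene antifungal that binds ergosterol in the fungal membrane, and LF is an iron-binding protein of milk, here from cow. All cultures were strain S288C, a standard laboratory strain, grown in RPMI-1640, a medium made for animal cells, at 30 °C. The 6 groups held 3 biological replicates each: AMB at 0.03 µg/mL for 60 minutes with an untreated control of 60 minutes (control for AMB), AMB at 0.03 µg/mL with LF at 2 µg/mL for 50 minutes (AMB-LF) with an untreated control of 50 minutes (control for AMB-LF), and LF alone at 2 µg/mL for 50 minutes with its own untreated control (control for LF). The times are those labelled on each sample, and the study's supplement lists the same times for the controls. The growth protocol can be read as giving the first 2 controls the opposite times. The controls differed from the treated cultures by the absence of the agents, and the study describes the cultures as wild type. The times for AMB and AMB-LF were chosen in the study to slow growth to a like degree.

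The AMB and AMB-LF libraries and their controls (12) were sequenced together on a HiSeq in 2 lanes, with 6799569 to 9696467 counts per library, and the LF libraries and their control (6) on a NextSeq, with 23925944 to 30172836. The platforms were therefore never compared. Levels are given in CPM, in which the counts of every library are scaled to the same total, here after TMM scaling, which sets the typical gene equal between libraries. Lane and group were not balanced: the 3 control for AMB-LF libraries were all in lane 1. Among the mating genes used to check the cells, the 5 genes specific to a cells lay between 121 and 1047 CPM, and the 4 specific to alpha cells between 0.125 and 75.6 CPM, with MF(ALPHA)1, which encodes the alpha pheromone, at 0.809 CPM or less in every library. The reference strain named S288C is an alpha strain, and the labels state no mating type. In bulk cultures such as these, more cells with a transcript and more transcript per cell cannot be told apart.

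Yeast takes up and uses preferred nitrogen sources, such as glutamine, ammonium and asparagine, before poor ones such as proline, urea, allantoin and GABA. While a preferred source is plentiful, the genes for the poor ones are held down, which is nitrogen catabolite repression. The GATA factors Gln3 and Gat1 activate these genes, the GATA factors Dal80 and Gzf3 repress them, and Ure2 keeps Gln3 in the cytoplasm under the control of the TORC1 kinase complex. The GATA factors bind short elements before the coding sequences, of which the best known reads 5′-GATAAG-3′.

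The choice of members did not search for this element. It did name genes of the pathway whose GATA factors bind it, so the element and the list are not independent. In the RefSeq annotation of the R64 genome, GATAAG was found on either strand within 600 bases before the start codon in 29 of the 36 members (80.6%), against 26.8% of 5999 protein-coding genes with a window of that length. A pair or more of matches stood before 22 members (61.1%) and 4.92% of the genes. In the shorter window from 250 bases before to 50 after the first base of the start codon, 16 members (44.4%) and 14.7% of 6001 genes had a match. A variant element, GATTAG, whose matches can share an end base with those of GATAAG, was found in 14 members (38.9%) and in 19.5% of the genes within 600 bases. A match is a string of letters and no evidence of binding.

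The windows of 6 members are given below, 5′ to 3′ on the strand of the gene, from 250 bases before to 50 after the start of the coding sequence, with GATAAG or GATTAG on either strand in capitals (CTTATC is GATAAG read on the other strand). MEP2 and GAP1 had the largest log2 fold changes under AMB-LF, DAL80 and GLN3 encode a repressor and an activator, and DAL3 and PUT4 were chosen after their values were seen, as the member with the most matches in this window and a strongly raised member with none.
MEP2, chrXIV:357203-357502, + strand: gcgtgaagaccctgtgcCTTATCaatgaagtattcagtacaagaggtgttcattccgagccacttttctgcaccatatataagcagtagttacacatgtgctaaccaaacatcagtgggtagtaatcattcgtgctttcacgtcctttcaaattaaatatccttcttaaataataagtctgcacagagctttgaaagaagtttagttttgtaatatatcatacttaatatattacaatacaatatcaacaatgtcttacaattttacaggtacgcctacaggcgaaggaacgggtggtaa
GAP1, chrXI:514813-515112, + strand: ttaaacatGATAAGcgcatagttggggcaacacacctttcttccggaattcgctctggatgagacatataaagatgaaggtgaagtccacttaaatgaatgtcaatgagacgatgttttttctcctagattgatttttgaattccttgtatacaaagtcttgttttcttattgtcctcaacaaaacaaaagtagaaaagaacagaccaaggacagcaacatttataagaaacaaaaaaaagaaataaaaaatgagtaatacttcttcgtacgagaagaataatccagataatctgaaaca
DAL80, chrXI:506648-506947, + strand: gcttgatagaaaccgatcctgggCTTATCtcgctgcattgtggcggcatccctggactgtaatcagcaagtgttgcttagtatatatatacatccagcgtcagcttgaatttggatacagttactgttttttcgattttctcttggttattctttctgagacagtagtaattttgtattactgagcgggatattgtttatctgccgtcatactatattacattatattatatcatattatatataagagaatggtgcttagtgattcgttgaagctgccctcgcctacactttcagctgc
GLN3, chrV:229545-229844, + strand: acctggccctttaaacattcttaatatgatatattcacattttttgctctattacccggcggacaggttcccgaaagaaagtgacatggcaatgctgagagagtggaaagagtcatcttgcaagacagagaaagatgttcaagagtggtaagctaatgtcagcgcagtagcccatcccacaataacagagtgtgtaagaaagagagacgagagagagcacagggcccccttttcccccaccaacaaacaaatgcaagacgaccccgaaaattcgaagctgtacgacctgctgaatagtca
DAL3, chrIX:415568-415867, - strand: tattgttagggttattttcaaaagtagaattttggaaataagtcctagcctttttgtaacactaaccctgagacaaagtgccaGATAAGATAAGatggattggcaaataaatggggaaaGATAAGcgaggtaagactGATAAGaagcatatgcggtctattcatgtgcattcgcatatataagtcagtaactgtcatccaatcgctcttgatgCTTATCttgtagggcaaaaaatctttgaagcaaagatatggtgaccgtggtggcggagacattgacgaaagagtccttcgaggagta
PUT4, chrXV:988733-989032, - strand: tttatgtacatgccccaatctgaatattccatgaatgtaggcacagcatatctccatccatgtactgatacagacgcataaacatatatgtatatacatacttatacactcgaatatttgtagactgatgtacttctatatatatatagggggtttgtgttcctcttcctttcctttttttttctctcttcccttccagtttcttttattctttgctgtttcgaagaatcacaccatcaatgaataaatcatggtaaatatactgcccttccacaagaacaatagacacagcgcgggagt
MEP2, GAP1 and DAL80 each had 1 match in the printed window, DAL3 had 5, and GLN3 and PUT4 had 0. In DAL3 the first pair of matches overlapped by 1 base, so that the G ending one opens the next. Most matches of the ammonium permease and amino acid permease genes lay farther out: MEP2 had 7 within 600 bases, 6 of them from 465 to 323 bases before the start codon and the last at 233. GAP1 had 5, at 549, 469, 343, 293 and 242 bases, and the 2 GATTAG matches of GAP1 were at 427 and 299. GAT1 had 4 matches, at 241, 229, 224 and 219.

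**Figure D1:**
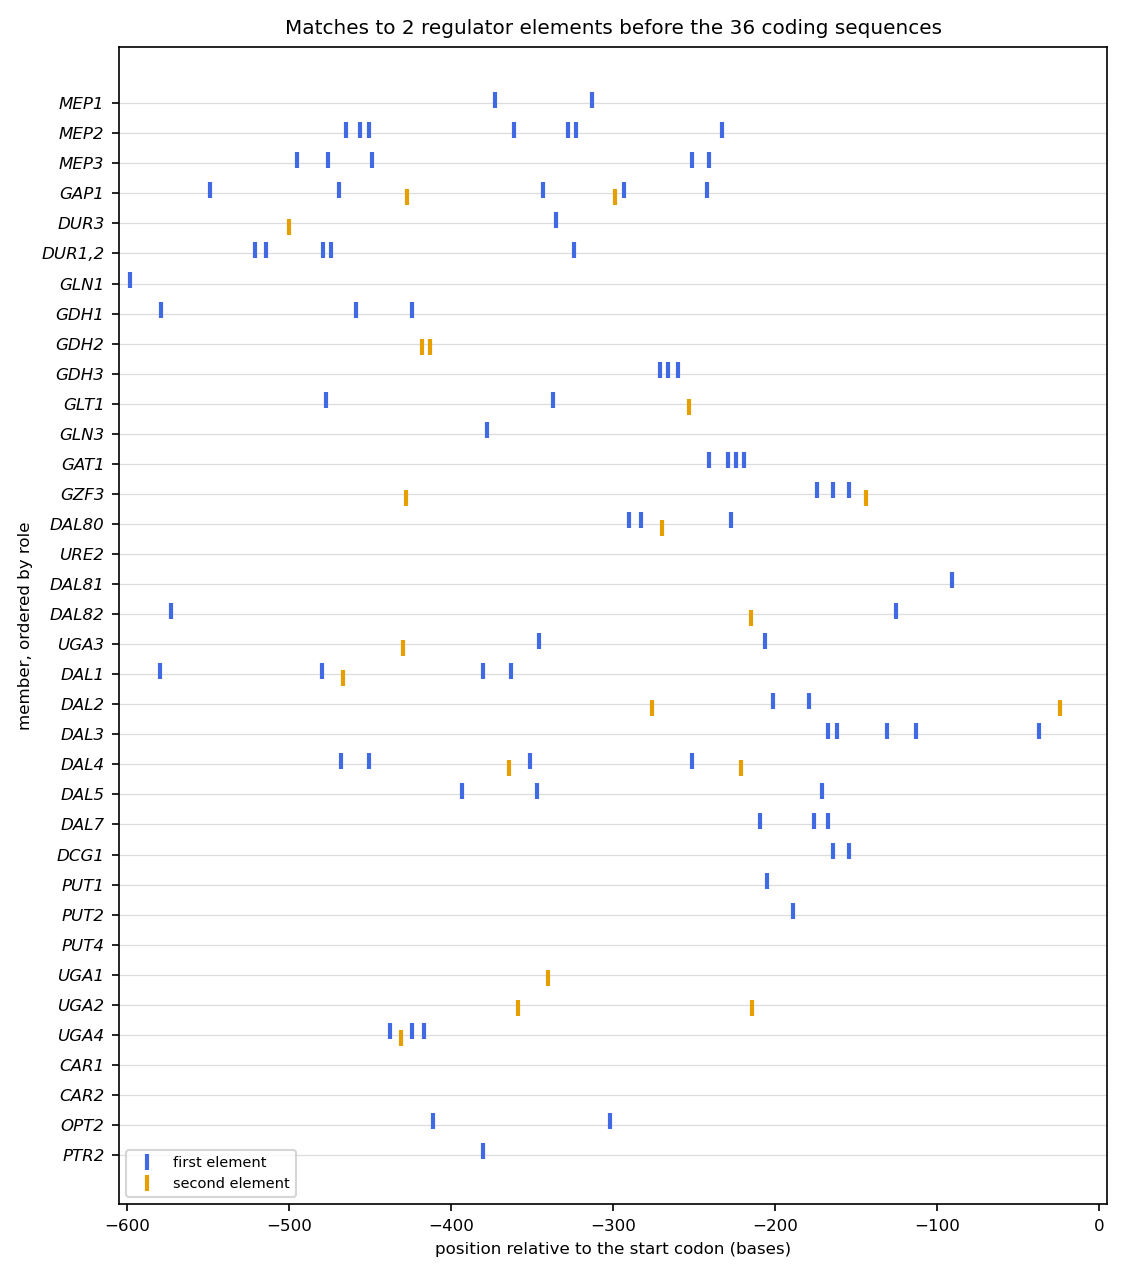
Positions of both elements within 600 bases before the start codon (x axis, bases) for the 36 members (y axis, by role); the first element is GATAAG and the second GATTAG, each tick marks the end of a match farthest from the start codon, on either strand. Ticks of the first element stand in 29 rows, and GDH2, URE2, PUT4, UGA1, UGA2, CAR1 and CAR2 have none.

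The matches are set beside the size of the change as a description, since the choice of members used that change. Of the 18 members with a log2 fold change of at least 1 under AMB-LF, 16 had GATAAG within 600 bases, as did 12 of the 17 other members tested, a pair or more stood before 12 and 9, and the median number of matches was 2 in both. PUT4 and CAR1 had no match and fold changes of 4.33 and 4.25 under AMB-LF. GDH3, with 3 matches, had a fold change of 1.28.

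All 36 members have a single coding exon and no overlapping RefSeq gene, and no member shared a stretch of 100 bases of coding sequence with another gene. DAL1, DAL4, DAL2, DCG1, DAL7 and DAL3 lie next to each other on chromosome IX, from 406260 to 415617. DAL1 and DAL4 are transcribed away from each other across 825 bases, and GLT1 and UGA3 across 677 bases on chromosome IV, so each pair shares its upstream windows. Within 600 bases the 4 GATAAG matches of DAL1 and DAL4 are the same sites, as are the 2 of GLT1 and UGA3. The counts of members above hold such sites for both genes, and the shares of all genes count them in the same way.

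Under either drug treatment the members together took a larger share of all counts. The share is a sum, so the most abundant members weigh most in it. Under AMB-LF the member means ran from 10.1 CPM for DAL80 to 3527 for GAP1 and 4407 for GLN1. They held 0.755% ± 0.0776 of the counts in the control for AMB and 1.65% ± 0.169 under AMB (SD, n = 3), and 0.52% ± 0.0534 in the control for AMB-LF and 2.12% ± 0.348 under AMB-LF. The 6 treated libraries lay between 1.52% and 2.50%, and the 6 untreated HiSeq libraries between 0.482% and 0.841%. Under LF alone the share was 0.618% ± 0.167, and 0.606% ± 0.157 in its control.

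DAL80 fell below the filter on low counts, and the 35 other members were tested on both platforms. Against its control, 25 members were called higher under AMB (adjusted p under 0.05 across 5456 genes, edgeR's quasi-likelihood test), where 18.7% of all genes tested were called higher, and 0 were called lower, where 18.4% were. Under AMB-LF 25 were called higher (14.1% of all genes) and 0 lower (15.1%). At an unadjusted p under 0.05, 28 members passed in either direction under AMB and 28 under AMB-LF, where 46.5% and 41.1% of all genes did. Of these members, 0 were lower under AMB and 1 under AMB-LF. The share of all genes lower at that p was not counted. At an adjusted p under 0.05, DESeq2 also called 0 members lower in both treatments. The median log2 fold change of the members was 0.54 under AMB and 1.26 under AMB-LF, against medians of -0.02 and -0.01 over all genes tested. In all, 22 members were called higher in both treatments, 3 under AMB only (GDH2, PUT2 and UGA2), 3 under AMB-LF only (GDH1, GLT1 and DAL81) and 7 in neither. The share of all genes in each of these classes was not counted. Since the members were named with these responses known, these counts describe the list and are no evidence about it.

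**Figure D2:**
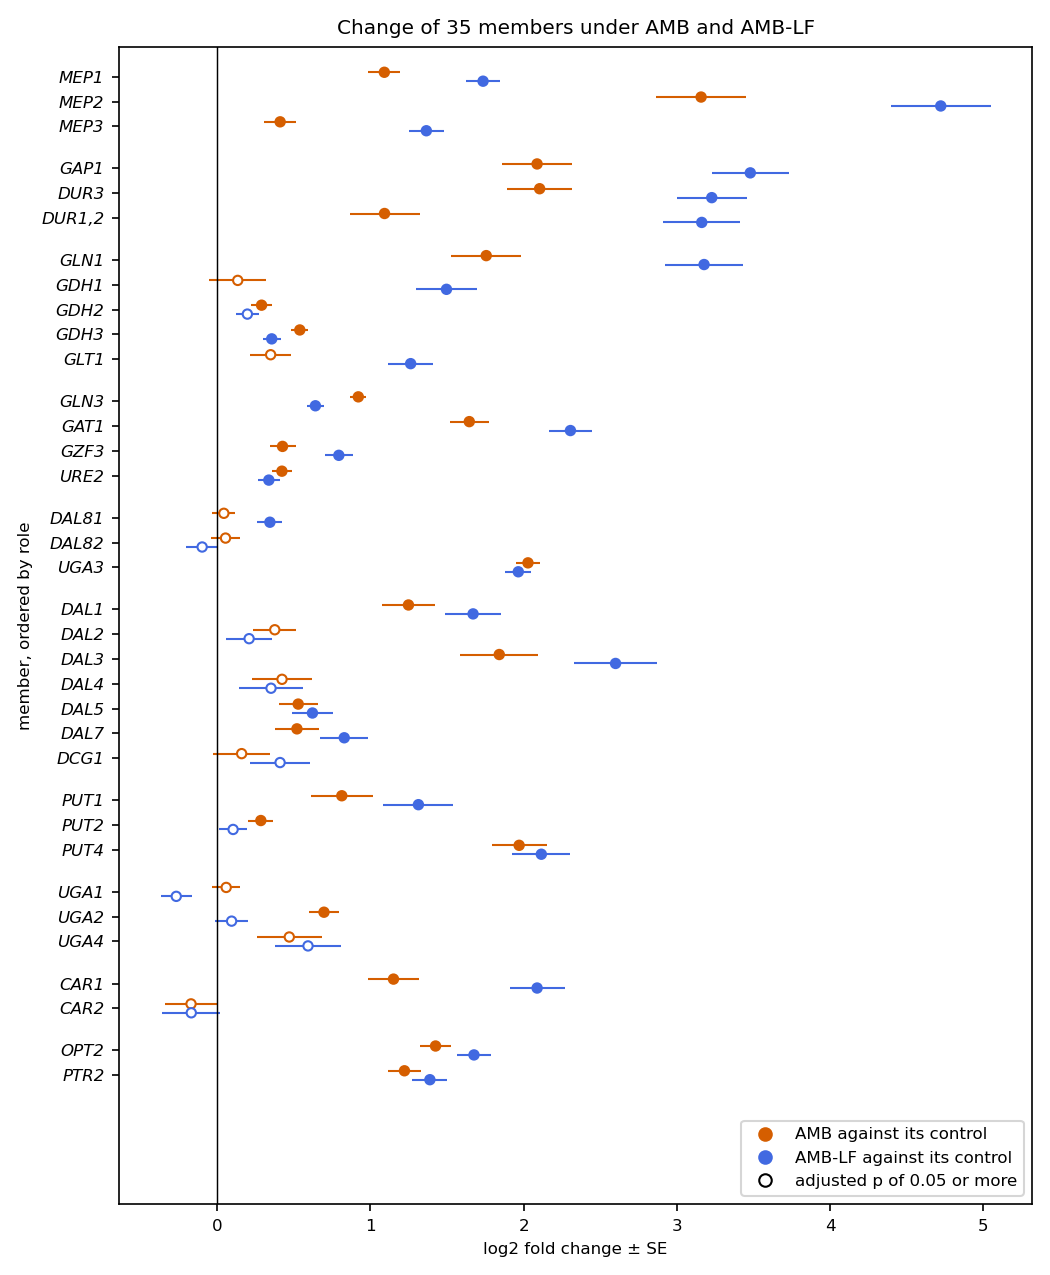
Log2 fold change ± SE (x axis) of the 35 members tested, by role (y axis), under AMB and AMB-LF, each against its own control of 3 libraries; filled points passed an adjusted p of 0.05 and open points did not. MEP2 stands farthest to the right in both treatments (3.16 and 4.72), and CAR2 lies below 0 in both (-0.17 and -0.17).

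The ammonium permeases are encoded by MEP1, MEP2 and MEP3, of which Mep2 has the highest affinity and also signals filamentous growth. MEP2 (YNL142W) was at 165, 142 and 207 CPM in the control for AMB and at 1273, 1336 and 2016 under AMB. In the control for AMB-LF it was at 82.7, 94.6 and 115 CPM, and under AMB-LF at 3579.5, 1653 and 2355. Every treated library was above every untreated one, and AMB-LF replicate 1 was the highest of all. The log2 fold changes were 3.16 ± 0.30 and 4.72 ± 0.32 (SE, n = 3 per group), or 8.93-fold and 26.4-fold. Without AMB-LF replicate 1 the latter was 4.03, or 16.4-fold.

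MEP1 (YGR121C), a permease of lower affinity, was at 153, 163 and 189.9 CPM in the control for AMB and at 344, 338 and 382 under AMB. Its control for AMB-LF was lower, at 109, 131 and 125 CPM, and its AMB-LF libraries were at 450.4, 387 and 409. The groups of each comparison did not overlap (log2 fold changes 1.09 ± 0.10 and 1.73 ± 0.11). MEP3 (YPR138C), the permease of lowest affinity and highest capacity, was at 175, 179.6 and 192 CPM in the control for AMB and at 249, 224 and 257 under AMB. It was at 107, 110.3 and 132 CPM in the control for AMB-LF and at 335, 284 and 272 under AMB-LF. Its change was 0.41 ± 0.10 under AMB and 1.36 ± 0.11 under AMB-LF on the log2 scale. Its treated groups differed from each other by 0.29 ± 0.10 and its controls by -0.66 ± 0.12.

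GAP1 (YKR039W) encodes the general amino acid permease, which takes up all the common amino acids when nitrogen is poor. It was at 532, 423 and 639 CPM in the control for AMB and at 1986, 2092 and 2769.6 under AMB. It was at 282, 301 and 387 CPM in the control for AMB-LF and at 4565, 2743 and 3273 under AMB-LF. The groups stood well apart, and the log2 fold changes were 2.09 ± 0.23 and 3.48 ± 0.25, or 4.25-fold and 11.2-fold.

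Urea enters through Dur3 and is split to ammonium and carbon dioxide by the DUR1,2 product, urea amidolyase. DUR3 (YHL016C) was at 52.5, 51.6 and 73.7 CPM in the control for AMB, at 229, 225 and 311 under AMB, at 36.8, 39.9 and 39.1 in the control for AMB-LF and at 475, 283 and 326 under AMB-LF. DUR1,2 (YBR208C) was at 469, 407 and 605 CPM in the control for AMB, at 1193, 914 and 1122 under AMB, at 171, 170.2 and 281 in the control for AMB-LF and at 2194, 1539 and 1622 under AMB-LF. Both genes were higher in every treated library than in any untreated one. The log2 fold changes of DUR3 were 2.10 ± 0.21 and 3.23 ± 0.23, and those of DUR1,2 were 1.09 ± 0.23 and 3.16 ± 0.25.

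**Figure D3:**
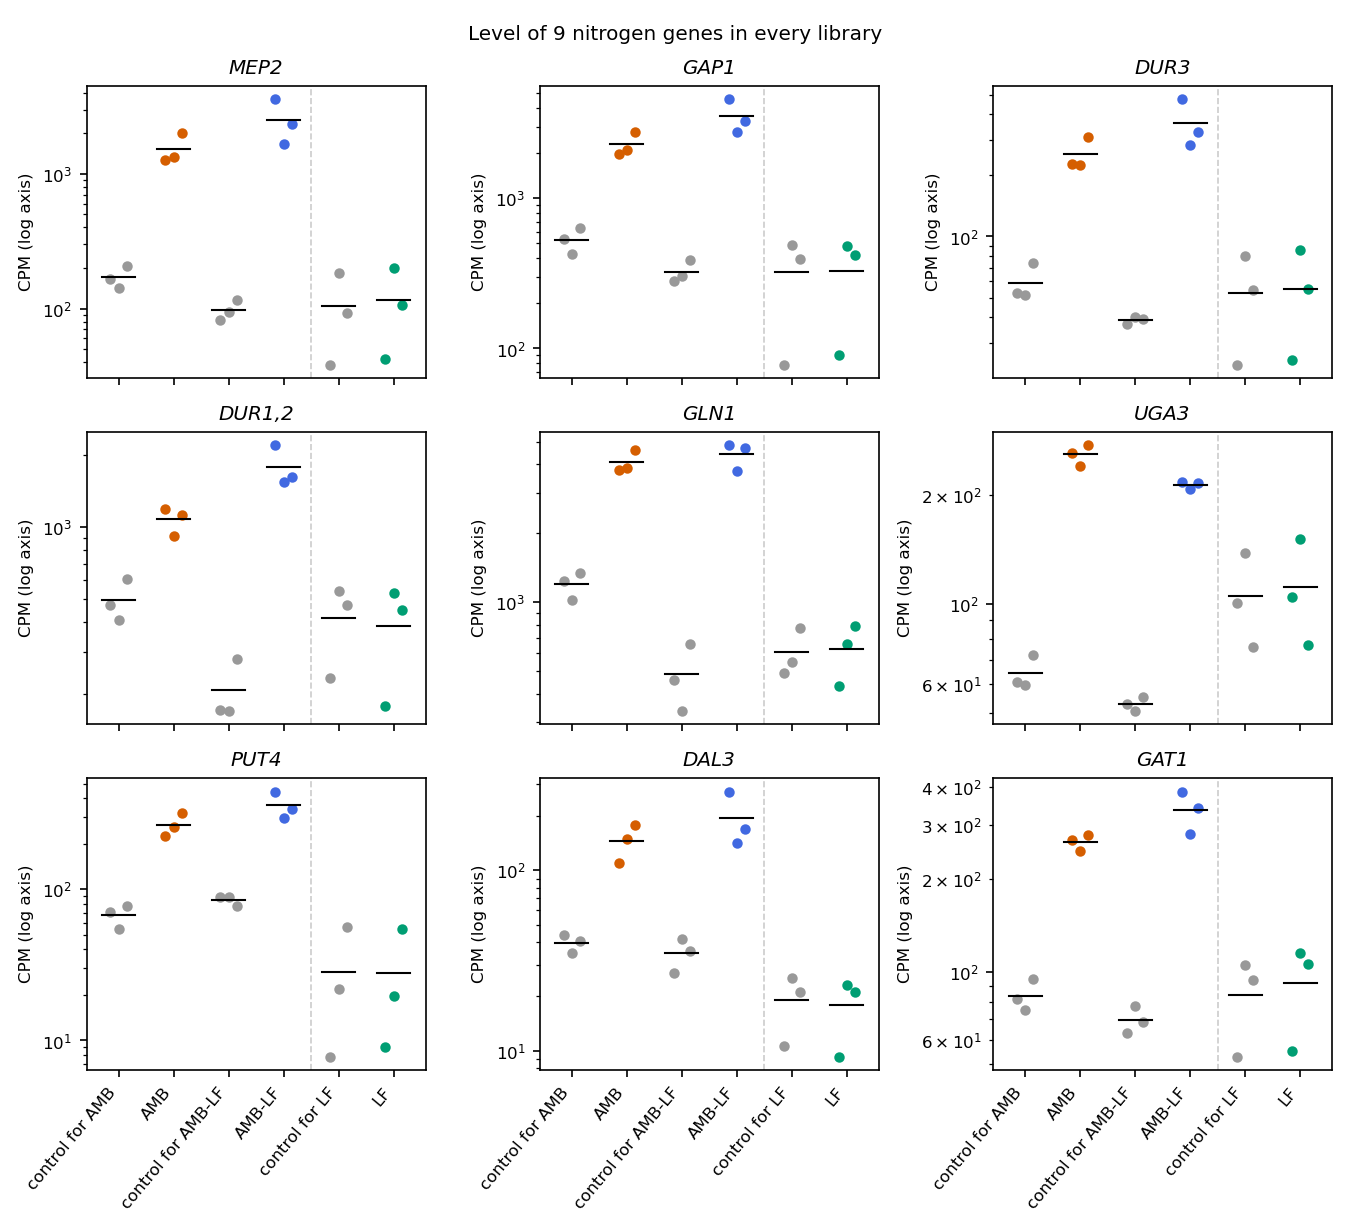
Level in CPM (y axis, log scale, own range per panel) of 9 members in each library, by group (x axis); points are libraries in order of replicate number, short lines are group means, and the dashed line parts the HiSeq from the NextSeq groups. For each gene the 6 AMB and AMB-LF libraries lie above the 6 untreated HiSeq libraries, while the LF libraries spread as widely as their control.

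Ammonium is built into glutamate and glutamine by a small set of enzymes. GLN1 (YPR035W), which encodes glutamine synthetase, was at 1244, 1022 and 1343 CPM in the control for AMB and at 3747, 3838 and 4594 under AMB. It was at 460.3, 337 and 661 CPM in the control for AMB-LF and at 4817, 3724 and 4681 under AMB-LF. Its treated groups overlapped each other, and its controls did not (log2 fold changes 1.76 ± 0.23 and 3.18 ± 0.25).

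GDH1 (YOR375C) encodes the NADP-dependent glutamate dehydrogenase that makes glutamate from ammonium. It was at 1919, 1975 and 2467 CPM in the control for AMB and at 2339.7, 2014 and 2501 under AMB, which overlap. It was at 881, 1083 and 1469 CPM in the control for AMB-LF and at 3609, 3019 and 3392 under AMB-LF, which do not. GLT1 (YDL171C), which encodes glutamate synthase, was at 197, 235 and 219 CPM in the control for AMB and at 298, 257 and 274 under AMB. It was at 100.3, 124 and 149 CPM in the control for AMB-LF and at 320.5, 309 and 267 under AMB-LF. GDH1 changed by 0.13 ± 0.18 under AMB, which did not pass, and by 1.50 ± 0.20 under AMB-LF, and GLT1 by 0.35 ± 0.14, which did not pass, and 1.26 ± 0.15. GDH3 (YAL062W), a second NADP-dependent glutamate dehydrogenase, and GDH2 (YDL215C), which degrades glutamate, moved less, with log2 fold changes of 0.54 and 0.29 under AMB and 0.36 and 0.20 under AMB-LF, the last of which did not pass.

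Per kilobase of coding sequence, GDH1 had the highest mean of the 36 members in the control for AMB, at 1553 CPM per kb, before GLN1 at 1081, CAR1 at 525 and GAP1 at 294. In the control for AMB-LF the order of means was GDH1 at 838, GLN1 at 437, CAR1 at 264, UGA1 at 198 and GAP1 at 179. MEP2 was 12th of 36 there, at 65.0. Under AMB-LF the order was GLN1 at 3959.8, GDH1 at 2447, GAP1 at 1949.7 and MEP2 at 1686 CPM per kb. On this scale the libraries of GLN1 and GDH1 did not overlap in the control for AMB or under AMB-LF. Those of GDH1, GAP1 and MEP2 overlapped under AMB-LF, so the order of these 3 lies within their spread. DAL80 was last of the 36 in both controls, at 1.49 and 1.58 CPM per kb.

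The 5 GATA-pathway regulators were all at higher mean levels in the treated groups. GAT1 (YFL021W), an activator, was at 81.5, 74.8 and 94.6 CPM in the control for AMB, at 269, 248 and 278 under AMB, at 63.4, 77.6 and 68.5 in the control for AMB-LF and at 386, 281 and 342 under AMB-LF. Its groups were far apart (log2 fold changes 1.64 ± 0.13 and 2.31 ± 0.14). GLN3 (YER040W), the other activator, was at 63.8, 64.7 and 65.8 CPM in the control for AMB and at 121, 126 and 121 under AMB. In the control for AMB-LF it was at 62.8, 61.3 and 64.9 CPM and under AMB-LF at 98.5, 99.2 and 96.9. GLN3 varied little between replicates, its controls were level, and its log2 fold change was larger under AMB (0.92 ± 0.05) than under AMB-LF (0.64 ± 0.06).

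DAL80 (YKR034W), a repressor that is itself a target of the pathway, was rare. It was at 1.86, 1.12 and 0.647 CPM in the control for AMB (14, 9 and 5 counts) and at 5.87, 6.43 and 8.74 under AMB. It was at 1.81, 1.21 and 0.809 CPM in the control for AMB-LF (16, 10 and 8 counts) and at 15.5, 5.66 and 9.00 under AMB-LF. The groups did not overlap, and a fit with no filter gave log2 fold changes of 2.43 ± 0.44 and 3.23 ± 0.43. GZF3 (YJL110C), another repressor, was at 79.1, 87.0 and 84.1 CPM in the control for AMB, at 105, 108 and 118 under AMB, at 70.0, 57.3 and 71.4 in the control for AMB-LF and at 121, 113 and 123 under AMB-LF (log2 fold changes 0.43 ± 0.08 and 0.79 ± 0.09). URE2 (YNL229C), whose product holds Gln3 in the cytoplasm, was at 131, 139 and 133 CPM in the control for AMB, at 183, 176 and 176 under AMB, at 131, 112 and 127 in the control for AMB-LF and at 153, 161 and 163 under AMB-LF. It moved by 0.42 ± 0.07 under AMB, close to GZF3, and by 0.34 ± 0.07 under AMB-LF, without overlap.

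Among the pathway-specific activators, UGA3 stood apart. Uga3 switches on the genes for GABA use. UGA3 (YDL170W) was at 60.8, 59.9 and 72.0 CPM in the control for AMB, at 261, 239.6 and 273 under AMB, at 52.8, 50.7 and 55.2 in the control for AMB-LF and at 217, 207 and 215 under AMB-LF. Its log2 fold changes were 2.03 ± 0.08 and 1.96 ± 0.09, and its treated libraries were all above its untreated ones. The 3 genes of GABA use themselves moved less than UGA3. UGA1 (YGR019W), encoding GABA transaminase, changed by 0.06 and -0.27 and passed in neither. UGA4 (YDL210W), encoding the GABA permease, changed by 0.47 and 0.59 and passed in neither. UGA2 (YBR006W), encoding succinate semialdehyde dehydrogenase, changed by 0.70 under AMB, which passed, and 0.09 under AMB-LF, which did not. DAL81 (YIR023W), a general activator of the allantoin and GABA genes, changed by 0.04, which did not pass, and 0.34, and DAL82 (YNL314W), which activates the allantoin genes, by 0.05 and -0.10, which did not pass.

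The allantoin pathway was split. Of its 7 genes, 4 (DAL1, DAL3, DAL5 and DAL7) were called higher in both treatments, and DAL2, DAL4 and DCG1 in neither. DAL3 (YIR032C), encoding ureidoglycolate lyase, was at 43.6, 34.7 and 40.5 CPM in the control for AMB, at 109, 150.1 and 179 under AMB, at 26.9, 41.7 and 35.6 in the control for AMB-LF and at 274, 142 and 169 under AMB-LF. DAL1 (YIR027C), encoding allantoinase, was at 11.1, 13.1 and 11.5 CPM in the control for AMB, at 30.1, 24.0 and 32.2 under AMB, at 9.97, 11.3 and 9.81 in the control for AMB-LF and at 39.5, 27.5 and 29.1 under AMB-LF. Neither gene overlapped with its control, and the log2 fold changes were 1.84 ± 0.25 and 2.60 ± 0.27 for DAL3 and 1.25 ± 0.17 and 1.67 ± 0.18 for DAL1.

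DAL5 (YJR152W), the allantoate permease gene, and DAL7 (YIR031C), which encodes a malate synthase, changed by 0.53 and 0.52 under AMB and by 0.62 and 0.83 under AMB-LF. DAL2 (YIR029W), encoding allantoicase, DAL4 (YIR028W), encoding the allantoin permease, and DCG1 (YIR030C), of unknown function, changed by 0.16 to 0.42 under AMB and by 0.21 to 0.41 under AMB-LF. These 6 neighbouring genes of chromosome IX therefore held both DAL3 and DAL1, among the more strongly raised members, and 3 genes that did not pass.

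For proline use, PUT4 (YOR348C), the proline permease gene, was at 70.6, 54.5 and 77.4 CPM in the control for AMB, at 226, 257 and 318 under AMB, at 88.9, 88.7 and 77.9 in the control for AMB-LF and at 443, 298 and 338 under AMB-LF. The groups did not overlap (log2 fold changes 1.97 ± 0.18 and 2.12 ± 0.19), and its control for AMB-LF was not the lower of the controls. PUT1 (YLR142W), encoding proline oxidase, was at 169, 178 and 129 CPM in the control for AMB, at 381, 268 and 223 under AMB, at 94.8, 90.1 and 79.9 in the control for AMB-LF and at 182, 253 and 177 under AMB-LF (log2 fold changes 0.81 ± 0.20 and 1.31 ± 0.23). PUT2 (YHR037W), the next enzyme of the route, changed by 0.28 under AMB, which passed, and 0.10 under AMB-LF, which did not.

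CAR1 (YPL111W), encoding arginase, was at 488, 520.5 and 571 CPM in the control for AMB, at 1197, 1118 and 1137 under AMB, at 239, 206 and 349 in the control for AMB-LF and at 1133, 1126 and 1218 under AMB-LF. Its 6 treated libraries were close together, and the log2 fold changes were 1.15 ± 0.16 and 2.09 ± 0.18. CAR2 (YLR438W), encoding ornithine aminotransferase, the next step of arginine breakdown, was between 102 and 167 CPM in all 12 HiSeq libraries and did not pass in either treatment.

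The peptide transporter genes were both raised. OPT2 (YPR194C), an oligopeptide transporter gene, was at 29.8, 24.5 and 27.8 CPM in the control for AMB, at 80.7, 72.4 and 76.6 under AMB, at 24.7, 22.3 and 25.6 in the control for AMB-LF and at 84.2, 66.6 and 63.3 under AMB-LF. PTR2 (YKR093W), the transporter gene for di- and tripeptides, was at 46.8, 40.8 and 52.7 CPM in the control for AMB, at 110.5, 118 and 105 under AMB, at 46.0, 52.8 and 52.8 in the control for AMB-LF and at 135, 135 and 112 under AMB-LF. The log2 fold changes were 1.42 ± 0.10 and 1.68 ± 0.11 for OPT2 and 1.22 ± 0.11 and 1.39 ± 0.11 for PTR2, with no overlap.

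Across the 12 HiSeq libraries, 24 of the 36 members were higher in each of the 6 treated libraries than in any of the 6 untreated ones, whichever control is taken, where 10.1% of the 5456 genes tested were. The members that overlapped were GDH1, DAL81, DAL82, DAL2, DAL4, DCG1, PUT1, PUT2, UGA1, UGA2, UGA4 and CAR2. AMB-LF replicate 1 was the highest of its 3 libraries for 25 of 36 members, and AMB replicate 3 the highest of its 3 for 21. Without AMB-LF replicate 1, 22 members were called higher under AMB-LF, and without control for AMB replicate 1, 21 were called higher under AMB. The shares of all genes called in these fits were not counted.

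The AMB and AMB-LF cultures differed in LF and also in growth time (60 and 50 minutes), which cannot be told apart. These 2 drug treatments were next compared directly. The choice of members did not use this comparison, or that between the controls, but the responses it used come from the same libraries, so neither is independent of it. AMB-LF against AMB, 0 members were called higher (0.0183% of all genes) and 1 lower (0.312%), GLN3, at a mean of 98.2 ± 1.17 CPM under AMB-LF and 123 ± 2.54 under AMB (SD, n = 3), which is a log2 difference of -0.32 ± 0.05 (95% interval -0.43 to -0.21, adjusted p = 0.0267, edgeR). At an unadjusted p under 0.05, 8 members were higher and 3 lower, where 7.07% of all genes passed in either direction, and DESeq2 also called DUR1,2 higher. The call of GLN3 was kept in 9 of 22 alternatives, with adjusted p from 0.00173 to 0.839 and log2 fold changes from -0.34 to -0.30, and it was lost, among others, without any 1 of the 6 treated libraries, without any 1 control for AMB library, and within lane 1 or lane 2.

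For the other members the intervals show what these libraries could resolve. MEP2 was 1.65-fold higher under AMB-LF than under AMB, with a 95% interval of 0.13 to 1.31 on the log2 scale (adjusted p = 0.478). The interval for GAP1 was 0.16 to 1.12 (adjusted p = 0.404) and for DUR1,2 0.27 to 1.24 (adjusted p = 0.266). For GLN1 it was -0.36 to 0.60 (adjusted p = 0.992) and for CAR1 -0.36 to 0.34 (adjusted p = 0.999). UGA3 was lower in each AMB-LF library than in any AMB library, by 0.30 ± 0.07 on the log2 scale, and did not pass after adjustment (adjusted p = 0.197).

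The controls differed more than the treated groups did. In the 50-minute controls (for AMB-LF) 10 members were called lower than in the 60-minute controls (for AMB), where 16.6% of all genes were, and 3 higher, where 15.2% were. The members called lower were DUR1,2 at -1.32 ± 0.25 (adjusted p = 0.00293), GLN1 at -1.30 ± 0.25 (adjusted p = 0.00274), CAR1 at -0.95 ± 0.18 (adjusted p = 0.00276), PUT1 at -0.95 ± 0.23 (adjusted p = 0.00833), GDH1 at -0.84 ± 0.21 (adjusted p = 0.00976), GLT1 at -0.80 ± 0.15 (adjusted p = 0.00274), GAP1 at -0.75 ± 0.25 (adjusted p = 0.0374), MEP3 at -0.66 ± 0.12 (adjusted p = 0.00223), MEP1 at -0.43 ± 0.11 (adjusted p = 0.0147) and GZF3 at -0.28 ± 0.10 (adjusted p = 0.0428), all by edgeR on the log2 scale. The members called higher were UGA2 at 0.44 ± 0.11, UGA1 at 0.30 ± 0.10 and GDH3 at 0.20 ± 0.06. MEP2 (-0.85 ± 0.31, adjusted p = 0.0589) and DUR3 (-0.62 ± 0.24, adjusted p = 0.0726) did not pass, though their groups did not overlap.

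The controls differed in growth time, which cannot be told apart from the group. They also differed in lane, for which the fit holds a term: lane 1 holds all 3 control for AMB-LF libraries and 1 control for AMB library. Without control for AMB replicate 1, 6 members were called lower and 1 higher, and the share of all genes called in that fit was not counted. MEP3 and GLN1 were called lower under each of the 21 alternatives, and GZF3 under 9.

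**Figure D4:**
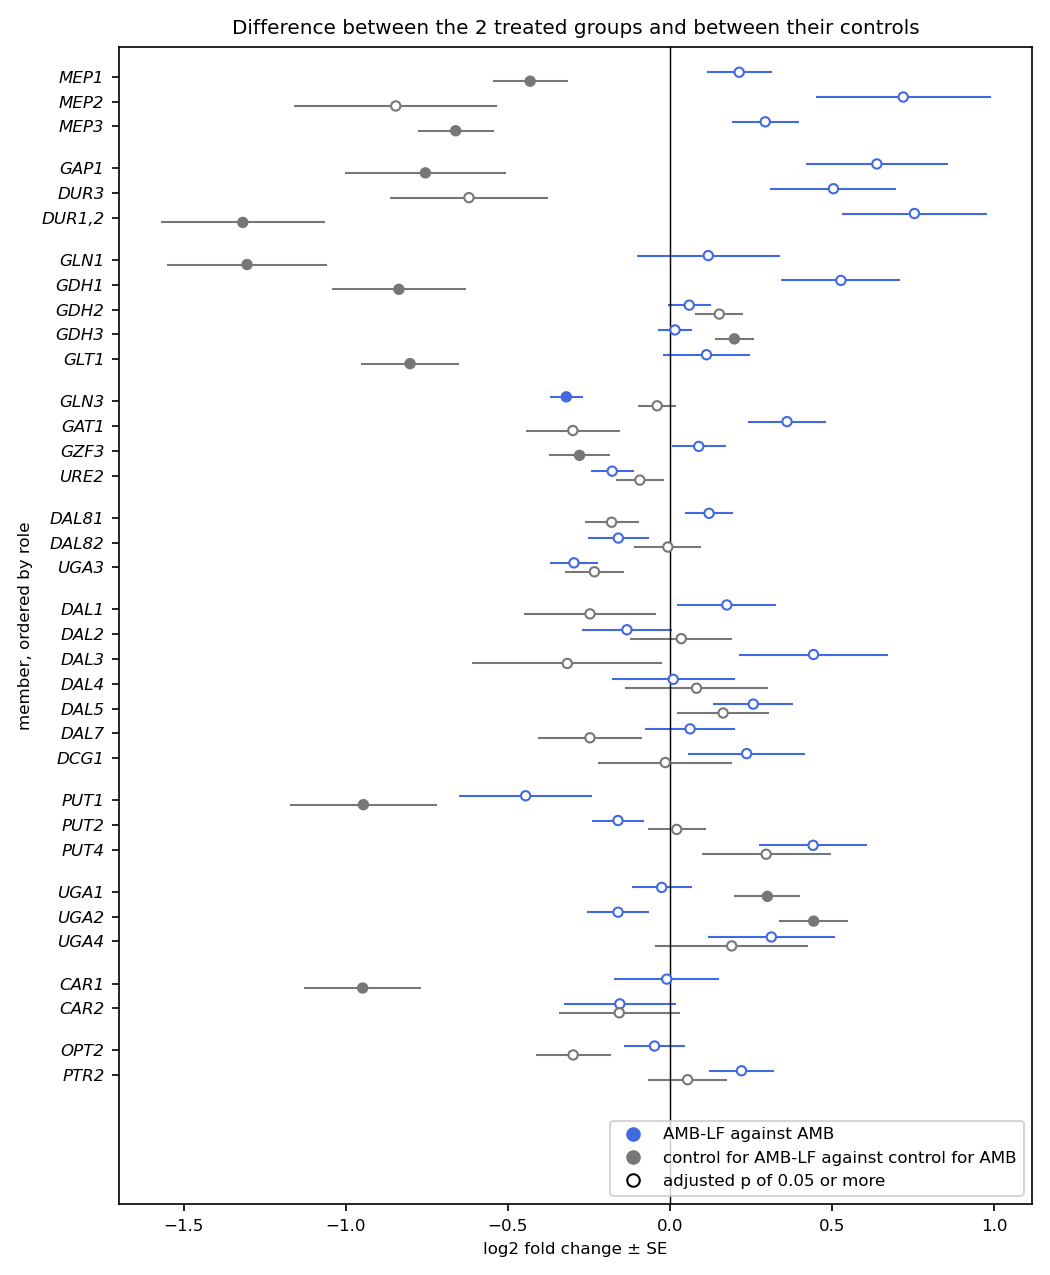
Log2 difference ± SE (x axis) between AMB-LF and AMB, and between the control for AMB-LF and the control for AMB, for 35 members by role (y axis), 3 libraries per group; filled points passed an adjusted p of 0.05. GLN3 is the 1 filled point of the treated comparison, and 10 of the control points are filled to the left of 0 and 3 to the right.

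Each against its own control, the response to AMB-LF was larger than that to AMB for 24 of the 35 members, and for 12 of the 35 with the control labels exchanged. The difference between the responses passed for 11 members with a larger response to AMB-LF (10.1% of all genes did) and for GLN3 and UGA2 with a smaller one (7.46%). The largest differences were those of DUR1,2 (2.07 ± 0.35), MEP2 (1.56 ± 0.42), GLN1 (1.42 ± 0.35) and GAP1 (1.39 ± 0.34) on the log2 scale. For GLN1 the treated groups differed by 0.12 and the controls by -1.30, and for MEP2 by 0.72 and -0.85. With AMB-LF replicate 1 left out 0 members passed in either direction, and the same held with control for AMB replicate 1 left out. Each of these libraries was the only one of its group in lane 1, so without it the fit relies more on the lane term. Values in these fits were 1.69 and 2.25 for DUR1,2, 1.25 and 1.35 for GLN1, 1.13 and 1.49 for GDH1, 0.76 and 1.67 for MEP2 and 0.42 and 1.31 for DUR3. Without AMB replicate 3, the difference of MEP2 was 2.29. A plot among the study's materials labels these 2 control groups the other way round, and that exchange made the response to AMB the larger for each of the 11 except GAT1.

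LF alone gave no call for any member. Of the 35 tested, 0 were called in either direction by edgeR's quasi-likelihood test, 0 had an unadjusted p under 0.05, and DESeq2 called 0. Of all 5445 genes tested, 0% were called and 8 had an unadjusted p under 0.05. With the replicate number as a block, since the replicates came from different days, 0 members were called, 7 had an unadjusted p under 0.05, as did 7.68% of all genes, the largest log2 difference of any member was 0.19 and the smallest adjusted p was 0.493.

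The members instead differed between the replicates of LF and its control. GAP1 was at 78.1, 487 and 397 CPM in replicates 1, 2 and 3 of the control for LF and at 89.8, 484 and 417 in the same replicates of LF. MEP2 was at 38.4, 184 and 93.0 CPM in the control and at 42.4, 199 and 106 under LF. PUT4 was at 7.79, 22.0 and 56.0 CPM in the control and at 9.05, 19.8 and 54.6 under LF. In each case the libraries that share a number stood together and apart from the others, whether or not LF was added.

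Replicate 1 had the lowest mean of its 2 libraries for 30 of the 36 members, and for 30.2% of all genes tested. The highest was replicate 2 for 17 and replicate 3 for 16, and in 23 members the 3 pairs did not overlap, where 35.8% of all genes tested were separated in this way. The ratio of the highest to the lowest replicate had a median of 1.61 over the members and 1.19 over all genes tested, and reached 6.56 for PUT4, 5.78 for GAP1, 4.74 for MEP2 and 3.45 for DUR3. The ratio between LF and its control within a replicate, in either direction, was at most 1.40. The order of replicates was not the same for all members: MEP1, MEP2, MEP3, GAP1, DUR3, DUR1,2 and GAT1 were highest in replicate 2, and PUT1, PUT2, PUT4, UGA1 and UGA2 in replicate 3. DAL81, at 104, 105 and 105 CPM on average, and URE2, at 143, 138 and 123, varied little.

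**Figure D5:**
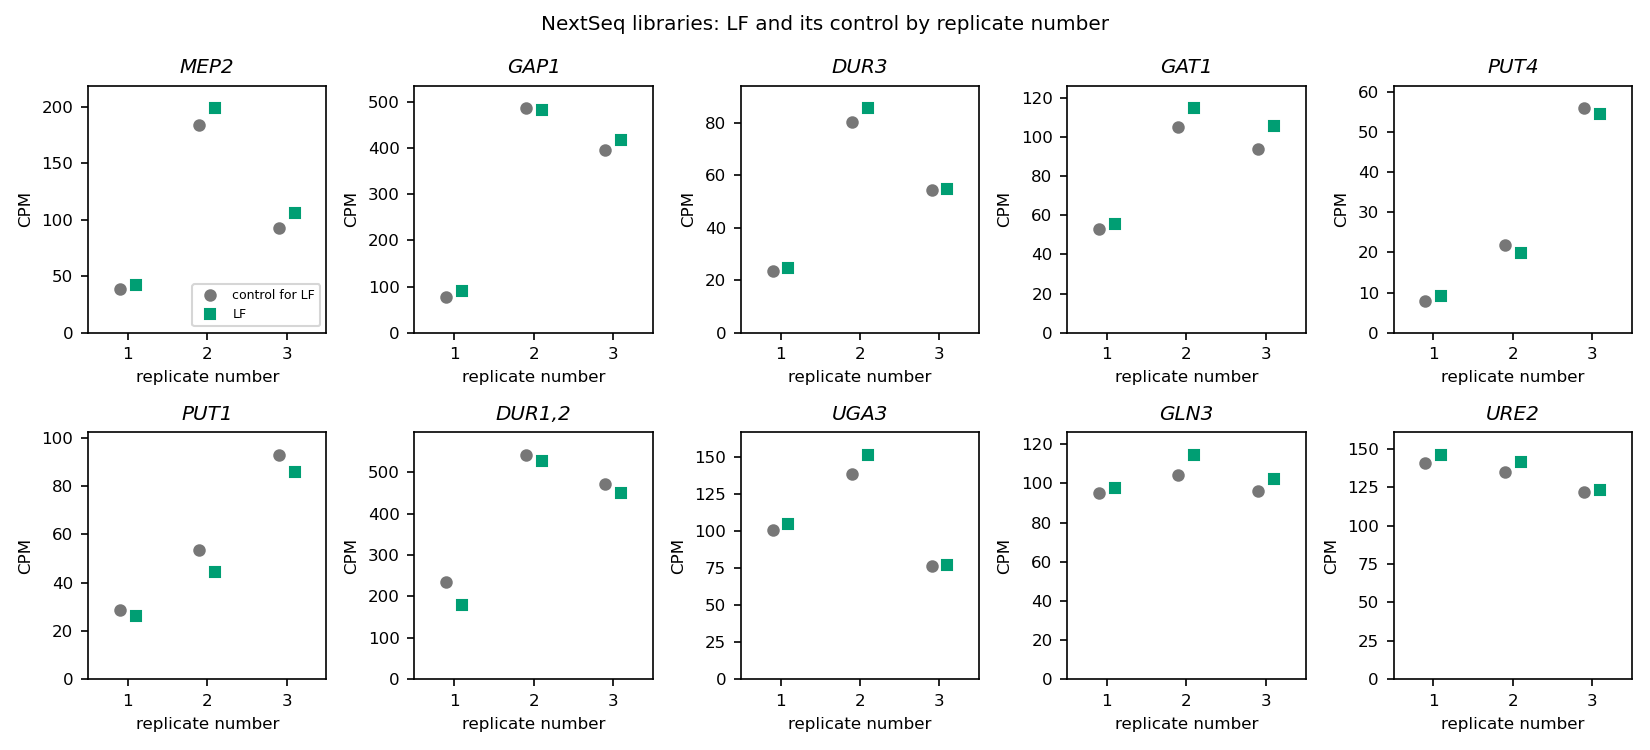
Level in CPM (y axis, from 0) of 10 members in the 3 control for LF and 3 LF libraries by replicate number (x axis). The circle and the square of a replicate lie close together, while GAP1 runs from 78.1 to 487 CPM between replicates and GLN3 from 95.3 to 115.

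Other genes bear on the same pathway, in lists that were also chosen with earlier results of these data known. Of 12 further targets of nitrogen catabolite repression outside the 36, 8 were tested; the 4 copies of ASP3, the cell wall asparaginase gene, had 0 to 24 counts per library, share sequence with each other and are uncertain. All 8 were called higher under AMB (18.7% of all genes), and 4 were called higher and 1 lower under AMB-LF (14.1% and 15.1%). The largest changes were those of AGP1, an amino acid permease gene, at 1.28 ± 0.19 and 2.49 ± 0.20, of APE1, a vacuolar aminopeptidase gene, at 0.84 ± 0.11 under AMB, and of CPS1, a vacuolar carboxypeptidase gene, at 0.92 ± 0.10 under AMB-LF. PRB1, encoding vacuolar proteinase B, was the gene called lower, at -0.40 ± 0.11.

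Of 23 genes of nitrogen signalling, which include subunits of TORC1, its upstream regulators and the amino acid sensor of the plasma membrane, 8 were called higher and 0 lower under AMB (18.7% and 18.4% of all genes), and 7 higher and 3 lower under AMB-LF (14.1% and 15.1%). At their head under AMB were NPR1, encoding a kinase that keeps Gap1 and Mep2 active at the membrane, at 0.75 ± 0.07, and STP2, a transcription factor of the amino acid sensor pathway, at 0.74 ± 0.07. Under AMB-LF the same genes led, at 0.58 ± 0.07 and 0.45 ± 0.08. SSY1, the amino acid sensor gene itself, fell by 0.46 ± 0.09 and TIP41, encoding a TORC1 pathway protein, by 0.29 ± 0.10 under AMB-LF. The median log2 fold change of the 23 genes was 0.05 in both treatments.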

How the data were processed

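RNA from 18 cultures was made into poly-A libraries and sequenced as 100 bp paired reads (HiSeq) or 75 bp single reads (NextSeq). Alignment by the authors was to genome build R64 with TopHat, and HTSeq gave the reads per coding sequence (version 0.5.3p9 for the HiSeq libraries; the study's supplement states that other tool versions were used for LF and its control), without regard to strand and without ambiguous overlaps. The values deposited by the authors and used here are these raw counts per gene. Reads from overlapping antisense transcripts therefore cannot be told apart. Deposited group averages, and the authors' own fold changes, p-values and FDR values, were not used.

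Members and lists were chosen with earlier results of these data known. Identifiers were matched to the RefSeq annotation of R64 (6008 of 6692, the rest holding 0.3% of counts), from which the printed sequences were taken. Genes with at least 7 CPM in 6 HiSeq or 3 NextSeq libraries were tested (5456 and 5445) with edgeR 4.0.16 in R 4.3.3: TMM scaling, quasi-likelihood test, Benjamini-Hochberg adjustment over all genes, threshold 0.05. One model held the 12 HiSeq libraries and a term for lane, another the 6 NextSeq libraries. Standard errors (SE) were taken as the size of the log2 fold change over the root of its F statistic. The common biological coefficient of variation was 0.0978 (HiSeq) and 0.179 (NextSeq). Members with a log2 fold change of at least 1 in size under AMB or AMB-LF, and the 5 GATA regulators, are given in every sample, and of the other lists the 2 largest called changes in each direction. Promoter windows were searched on both strands. The scripts were tested on simulated data. Python 3.11.15, pandas 2.3.3 and matplotlib 3.10.9 served for summaries and plots.

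Alternatives were RLE factors, library size only, no filter, DESeq2 1.42.0, edgeR's likelihood ratio test, the replicate number as a block, no lane term, the 6 libraries of a comparison only, exchanged control labels, the 6 untreated HiSeq libraries as 1 control, and each library left out in turn. Fits within lane 1 and lane 2 were added after seeing the data. For LF and its control, whose replicates came from different days, libraries that share a number deviated from their group means together (r = 0.882, 0.77 and 0.945 across genes), so the numbers pair these libraries.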

Additional observations from a re-analysis of the deposited data

Results flagged for a closer look

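For 13 members the responses to AMB-LF and AMB differed in the fit across all genes (edgeR's quasi-likelihood test of the difference, adjusted p under 0.05). Of all genes tested, 10.1% passed with a larger response to AMB-LF and 7.46% with a smaller one. The response to AMB-LF was the larger, on the log2 scale, by 0.64 for MEP1, 1.56 for MEP2, 0.95 for MEP3, 1.39 for GAP1, 1.12 for DUR3, 2.07 for DUR1,2, 1.42 for GLN1, 1.36 for GDH1, 0.91 for GLT1, 0.66 for GAT1 and 0.94 for CAR1. The difference was -0.28 for GLN3 and -0.60 for UGA2. With each library left out in turn, GLN3 passed in 1 of 12 fits, with values from -0.31 to -0.25. UGA2 passed in 8 of 12, with values from -0.80 to -0.46. The members were named with both responses known. Of these 13, GLN3 was also called between the treated groups, and 9 (MEP1, MEP3, GAP1, DUR1,2, GLN1, GDH1, GLT1, UGA2 and CAR1) between the controls. Growth time and group changed together and cannot be told apart, and the fit holds a term for lane.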

How the results depend on the processing

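With each library left out in turn, 21 to 27 members were called higher under AMB (lowest without control for AMB replicate 1) and 0 lower. The share of all genes called was not counted for the fits with a library left out. Under AMB-LF 22 to 27 were called higher (lowest without AMB-LF replicate 1) and 0 to 1 lower. AMB-LF against AMB, 0 were called higher and 0 to 1 lower. Between the controls 1 to 3 were called higher (1 without replicate 1 of AMB-LF or of either control, or without control for AMB replicate 2) and 6 to 14 lower (fewest without control for AMB replicate 1, most without AMB replicate 3), and in the difference between the responses 0 to 11 higher and 0 to 2 lower, with 7 higher without control for AMB-LF replicate 1 or without AMB replicate 2. Where 1 library of a group remained, as in some fits within a lane, the fit gives it the spread of the rest. For CAR2 that difference ranged from -0.57 without AMB replicate 3, where it passed, to 0.43 without AMB-LF replicate 1.

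Exchanging the control labels left 26 members higher in each treatment, but in the difference between the responses 0 were then called higher and 6 lower, and the values turned to -0.22 for MEP1, -0.13 for MEP2, -0.37 for MEP3, -0.12 for GAP1, -0.12 for DUR3, -0.56 for DUR1,2, -1.19 for GLN1, -0.31 for GDH1, -0.69 for GLT1, -1.39 for PUT1, 0.28 for UGA2 and -0.96 for CAR1. The alternative itself swaps the controls that differ.

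With the replicate block, AMB-LF against AMB gave 0 members lower and the controls 1 higher. The difference between the responses then gave 1 member higher (DUR1,2) and 0 lower. Of all 5456 genes, the block fit called 2 lower in AMB-LF against AMB, and 413 higher between the controls. In the difference it called 1 gene higher and 5 lower, where the main fit called 550 and 407. The loss of calls in the difference was thus not particular to the members. The HiSeq libraries share only a number (r from -0.512 to 0.0403). In LF the block changed no call of a member. Under AMB-LF 1 member was called lower (UGA1) with library size only, with no lane term and with the 6 libraries only. AMB-LF against AMB, 0 were lower with library size only, within lane 1 and within lane 2, and 1 was higher with DESeq2 (DUR1,2) and with the 6 libraries only (GDH1). In the difference, 1 was lower with no filter, with DESeq2 and with the likelihood ratio test, 4 with no lane term, and within lane 1 1 was higher (DUR3) and 0 lower. Within lane 1, 16 members were called higher under AMB, and the controls gave 0 higher and 4 lower; within lane 2, 1 member was lower under AMB (CAR2). The causes were not tested. With library size alone the median of all genes was -0.10 under AMB-LF (-0.01 with TMM) and 0.14 between the controls (0.03 with TMM), and the share of calls that were higher moved from 48.3% to 30.1% under AMB-LF, from 47.8% to 67.2% between the controls and from 57.5% to 43.3% in the difference. With 3 libraries per group the spread between libraries, more than depth, sets the intervals of the abundant members; DAL80, at 5 to 16 counts per untreated HiSeq library, is limited by depth.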
